A study of Homo sapiens with 4 samples.

Results

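The neurotensin and galanin systems are represented here by 8 genes among the 51103 of the deposited tables: the ligand genes NTS and GAL, the neurotensin receptor genes NTSR1 and NTSR2, the sorting receptor gene SORT1, and the galanin receptor genes GALR1, GALR2 and GALR3. Each was found by its gene name, and each name had 1 row. The group was chosen by measured values: the fold changes between REEP6 overexpression and control in these same libraries, in which NTSR1 and GAL were higher with REEP6, were known, and the other 6 genes complete the ligands and receptors. The values of the 8 genes in that comparison are therefore given as a description, with no test. The cells were labelled SCC-15, an established human oral squamous cell carcinoma line, although defining squamous markers were at or near 0 (values below). One group had received lentivirus to overexpress REEP6, a membrane protein of the endoplasmic reticulum, and the other was a negative control, with 2 libraries of polyadenylated RNA in each group. The series asked which genes and pathways respond to REEP6. The sources used here do not give the promoter that drives REEP6, the content of the control virus, or whether each line was a clone or a pool. Nor is it stated whether the libraries of a group came from separate cultures, and any p below then covers only the spread among these 4 libraries.

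Neurotensin is a short peptide of gut endocrine cells and neurons. It is cut from the NTS precursor and acts mainly through NTSR1, a receptor coupled to Gq proteins, which activate phospholipase C, release calcium from internal stores and switch on protein kinase C. NTSR2 is a second G protein-coupled receptor for the peptide, and sortilin, the product of SORT1, is a single-pass receptor that binds neurotensin and carries cargo between the Golgi, endosomes and the cell surface. Galanin is a neuropeptide that is amidated in most mammals but not in humans. Its receptors GALR1 and GALR3 couple mainly to Gi proteins, which inhibit adenylyl cyclase, whereas GALR2 also couples to Gq. Both peptides and NTSR1 have been studied as growth signals in carcinomas, those of the head and neck included.

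RefSeq promoter entries (assembly GRCh38.p14) were matched for NTS, NTSR1, NTSR2, SORT1, GALR1 and GALR2, and not for GAL and GALR3. The sequences of the 250 bases before the start site are shown for the 3 genes of the neurotensin system with counts in every library, because these genes stood at very different levels in the same cells. NTS lies at chr12:85874045-85874294 (plus strand), NTSR1 at chr20:62708586-62708835 (plus strand) and SORT1 at chr1:109397919-109398168 (minus strand). They are written 5′ to 3′, and capitals mark matches to the motifs searched on both strands: the cyclic AMP response element TGACGTCA, its core TGACG, the AP-1 element TGANTCA, the TATA element TATATA and the GC box GGGCGG. The core is part of the full response element, and overlapping matches run together in capitals.
NTS: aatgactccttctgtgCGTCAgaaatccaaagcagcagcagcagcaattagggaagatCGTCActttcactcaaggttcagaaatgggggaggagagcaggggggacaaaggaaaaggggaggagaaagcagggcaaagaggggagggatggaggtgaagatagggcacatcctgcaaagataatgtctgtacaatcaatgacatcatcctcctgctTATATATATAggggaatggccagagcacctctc
NTSR1: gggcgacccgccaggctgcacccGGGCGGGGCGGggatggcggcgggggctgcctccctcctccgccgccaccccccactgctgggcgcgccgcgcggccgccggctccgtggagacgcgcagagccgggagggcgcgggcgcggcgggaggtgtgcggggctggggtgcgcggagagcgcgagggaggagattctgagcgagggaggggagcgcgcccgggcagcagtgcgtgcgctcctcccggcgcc
SORT1: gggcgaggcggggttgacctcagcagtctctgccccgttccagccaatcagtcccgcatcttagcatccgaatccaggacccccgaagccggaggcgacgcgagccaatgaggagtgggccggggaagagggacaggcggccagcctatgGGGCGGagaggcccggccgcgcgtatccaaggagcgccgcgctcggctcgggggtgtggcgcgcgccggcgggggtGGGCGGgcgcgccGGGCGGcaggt

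The NTS window was AT-rich beside the others, with 49.2% G or C and 2 CpG dinucleotides, at the 30.5th and 14.7th percentiles of 34788 promoters. It held TATATA in 3 overlapping matches that began 33, 31 and 29 bases before the start site, and the core TGACG on the opposite strand in 2 places, at positions -234 and -192. TATATA was in 3.757% of promoters of this length and TGACG in 21.16%. The NTSR1 window had 82.0% G or C and 38 CpG dinucleotides, at the 98.3rd and 96.7th percentiles. It held 2 overlapping GC boxes, at positions -227 and -222. The main SORT1 window had 74.0% G or C, 32 CpG dinucleotides and 3 GC boxes, at positions -100, -24 and -11. A GC box was in 42.578% of promoters. The full element TGACGTCA (in 1.638% of promoters) and TGANTCA (in 6.591%) had no match in these 3 windows. RefSeq lists a second SORT1 start, whose window held 42.8% G or C, 2 CpG dinucleotides and no match. A match is a stretch of letters and not a measured binding site, and the counts per gene do not tell which SORT1 start was used.

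The 4 libraries held between 12856256 and 15208629 counts assigned to genes, with 24021 to 24393 genes counted in each. Levels are given in FPKM (fragments per kilobase of exon, scaled to the library's total), so a comparison between genes depends on the length given to each. REEP6 itself had 11.1 and 12.6 FPKM in control replicates 1 and 2. It had 20.0 and 20.9 FPKM in REEP6 replicates 1 and 2, a 1.76-fold difference. Of 10 squamous epithelial markers, 2 passed the filter on low values (PERP and ITGB4). PERP had means of 189 FPKM in control and 191 FPKM with REEP6 and was not called. ITGB4 was called higher (10.9% of all genes tested), from a mean of 13.8 to 18.3 FPKM (edgeR adjusted p = 0.00943). KRT6A and DSG3 were at 0 in every library, KRT5 had 0, 0, 2 and 2 counts, and TP63 had 3, 14, 3 and 4 counts, so these defining markers of the labelled cell type were at or near 0, and the identity of the cells was not tested further. Of 10 neuroendocrine markers, 6 passed the filter, among them CHGA, CHGB, SYP and NCAM1, while INSM1 was at 0. Their summed level was 498, 498, 310 and 279 FPKM in control replicates 1 and 2 and REEP6 replicates 1 and 2. Of the 6 tested, 2 were called lower (14.2% of all genes tested). SCG2 fell from a mean of 367 to 180.0 FPKM, which made up most of the fall in the sum, and SCG3 from 57.5 to 40.6 FPKM. CHGA (log2 fold change 0.27), NCAM1 (0.20), CHGB (-0.16) and SYP (-0.02) were not called. Summed levels of 10 fibroblast markers were 36.6, 34.5, 18.3 and 18.1 FPKM, with FAP at 0 throughout and COL1A2, DCN and THY1 near 0. Most of the sum was COL3A1, from a mean of 23.6 to 14.2 FPKM, and LUM, from 7.28 to 1.18 FPKM. Of these markers 4 were tested, and these 4 were called lower (14.2% of all genes tested). PDGFRA, not tested, went the other way, from 0.686 to 1.02 FPKM. The part of these differences in the results on peptide genes was not tested. In bulk RNA, a change in every cell and a change in the share of cells that carry a transcript cannot be told apart.

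The ligand genes differed in level and in their comparison. NTS (chr12, 85874295 to 85882992, plus strand, GRCh38) had 7 and 16 counts in control replicates 1 and 2 and 7 and 15 counts in REEP6 replicates 1 and 2, which is 0.350, 0.677, 0.340 and 0.725 FPKM. The groups overlapped, and the library numbered 2 held more NTS than the library numbered 1 in both. Exact 95% Poisson intervals were 2.81 to 14.4 for 7 counts and 9.15 to 26.0 for 16 counts and cover counting error only. The means were 0.513 ± 0.231 FPKM in control and 0.533 ± 0.272 FPKM with REEP6 (SD, n = 2), and NTS did not pass the filter of 1 FPKM in 2 libraries. A difference in NTS within these intervals was not detectable at this depth.

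GAL (chr11, 68683779 to 68691175, plus strand) had 36, 92, 124 and 147 counts in control replicates 1 and 2 and REEP6 replicates 1 and 2. Its level was 2.15 and 4.65 FPKM in the controls and 7.21 and 8.50 FPKM with REEP6. Both REEP6 libraries were above both controls, and control replicate 1 stood well below control replicate 2: the 95% intervals of their counts, 25.2 to 49.8 and 74.2 to 113, did not meet, although replicate 2 was also the deeper library. Mean GAL was 3.40 ± 1.77 FPKM in control and 7.85 ± 0.915 FPKM with REEP6 (SD, n = 2). The fitted difference was 2.31-fold, or 1.21 ± 0.308 (SE) on the log2 scale. The size rests on the controls. Without control replicate 1 the log2 fold change was 0.78, and without control replicate 2 it was 1.92.

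Of the receptors, NTSR1 was the abundant one. NTSR1 (chr20, 62708837 to 62762771, plus strand) had 617 and 750 counts in the controls and 1499 and 1625 counts with REEP6. Its level was 11.3 and 11.6 FPKM in control replicates 1 and 2 and 26.7 and 28.8 FPKM in REEP6 replicates 1 and 2. The groups lay far apart beside the spread within each, with means of 11.5 ± 0.221 and 27.8 ± 1.49 FPKM (SD, n = 2). The fitted difference was 2.46-fold, or 1.30 ± 0.0910 (SE) on the log2 scale. Within each library, NTSR1 stood above 69.7% and 70.6% of the tested genes in the controls and above 88.1% and 89.2% with REEP6. By size of the rise it was number 39 and GAL number 52 of the 1422 genes called higher.

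The remaining G protein-coupled receptors of both peptides were at or near 0. NTSR2 (chr2, 11658178 to 11670164, minus strand) and GALR1 (chr18, 77250549 to 77277896, plus strand) had no count in any library. By the one-sided 95% limit for a count of 0, this allows up to 3 counts, or between 0.197 and 0.233 CPM (counts scaled to the library's total), in a library of this depth. GALR2 (chr17, 76074794 to 76077541, plus strand) had 3, 9, 9 and 2 counts, which is 0.171, 0.434, 0.498 and 0.110 FPKM. Its groups overlapped, with means of 0.302 ± 0.186 and 0.304 ± 0.275 FPKM (SD, n = 2). ZACN, a gene on the same strand, overlaps GALR2 but shares 0 exonic bases with it, and had 5, 16, 13 and 7 counts. GALR3 (chr22, 37823382 to 37825495, plus strand) had 0 counts in 3 libraries and 2 counts in REEP6 replicate 2. In the cells with higher GAL, GALR2 was thus the one galanin receptor gene with counts in all 4 libraries, and its level was under 1 FPKM in each.

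SORT1 (chr1, 109309568 to 109397951, minus strand) had 767, 929, 848 and 963 counts. Its level was 6.51 and 6.67 FPKM in control replicates 1 and 2 and 6.99 and 7.90 FPKM in REEP6 replicates 1 and 2. The ranges did not overlap, but the gap between them was smaller than the distance between the REEP6 libraries. Means were 6.59 ± 0.110 and 7.45 ± 0.643 FPKM (SD, n = 2). The fitted difference was 1.15-fold, or 0.20 ± 0.0966 (SE) on the log2 scale.

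**Figure D1:**
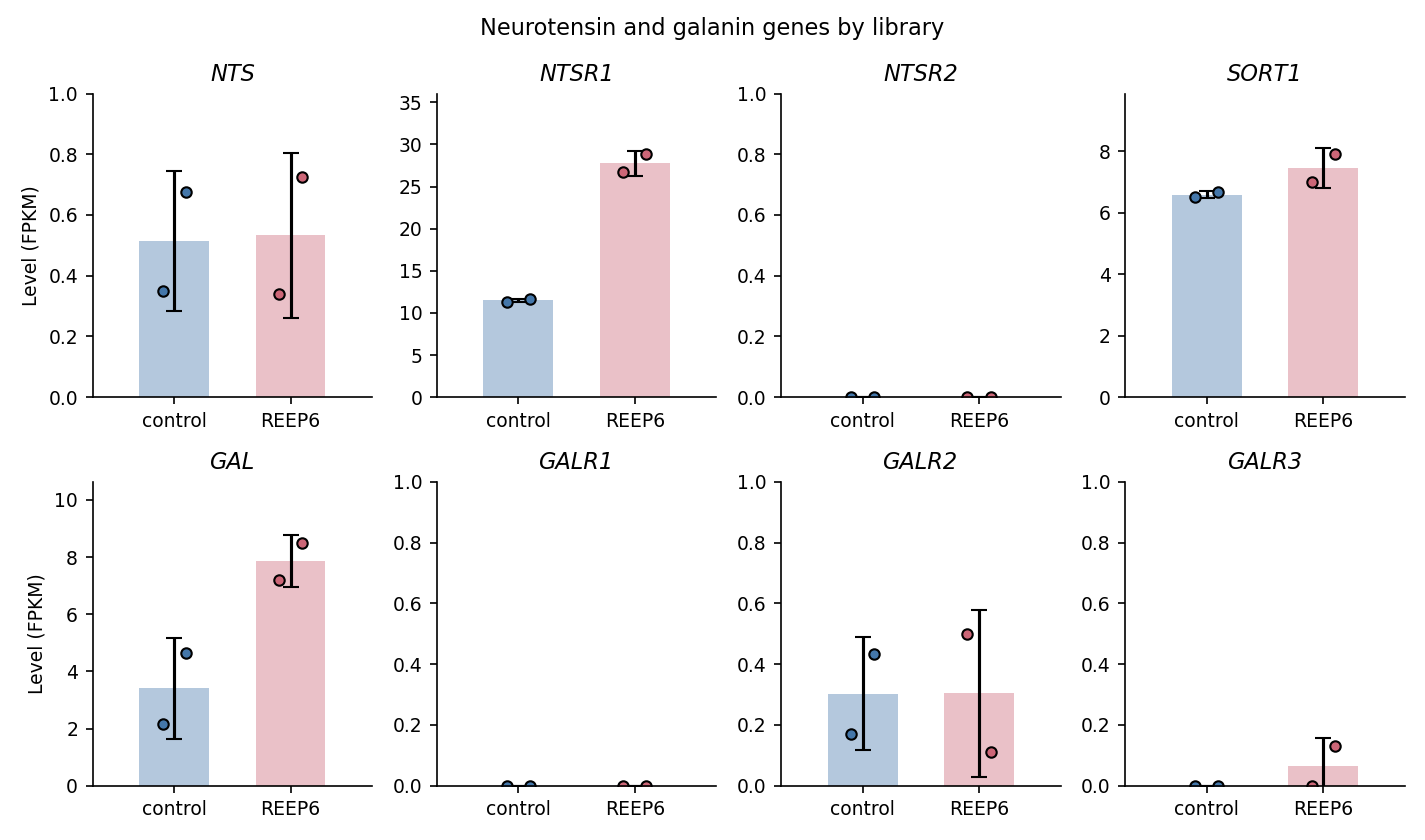
Level of each gene in FPKM (vertical axis, its own scale in each panel) for control and REEP6 libraries, with points for single libraries and bars for the mean and SD (n = 2). NTSR1 sits at 11.3 and 11.6 FPKM in control and at 26.7 and 28.8 FPKM with REEP6, while NTSR2 and GALR1 are at 0 throughout.

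Because FPKM is scaled by length, the genes can be set against each other inside a library, as far as the lengths hold. The length of each gene was that of all its annotated exons together: 9160 bases for SORT1, 4237 for NTSR1 and 1300 for GAL. SORT1 has 10 annotated transcripts. Which transcripts the cells made was not tested, so the ratios and the order below depend on these lengths. NTSR1 exceeded SORT1 1.74- and 1.75-fold in control replicates 1 and 2 and 3.82- and 3.65-fold in REEP6 replicates 1 and 2. GAL was below SORT1 in the controls, at 0.331 and 0.698 of its level, and about equal to it with REEP6, at 1.03 and 1.08. The receptor NTSR1 exceeded its ligand gene NTS 32.3- and 17.2-fold in control and 78.6- and 39.8-fold with REEP6. The ratio of NTSR1 to GAL was 5.26 and 2.50 in control and 3.71 and 3.39 with REEP6, so that this ratio overlapped between groups. The order of the mean levels in control was NTSR1, SORT1, GAL, NTS and GALR2, with NTS and GALR2 inside each other's spread and NTSR2, GALR1 and GALR3 at 0. With REEP6, GAL stood just above SORT1, and these neighbours differed by less than their SD.

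Of the 8 genes, 3 (NTSR1, GAL and SORT1) passed the filter, each with at least 1 FPKM in all 4 libraries. In the edgeR quasi-likelihood fit over 13077 genes, 2 of these 3 were called higher and 0 lower at a Benjamini-Hochberg adjusted p of 0.05. Of all genes tested, 10.9% were called higher and 14.2% lower, 25.0% in either direction. The FPKM values of 3 of 3 did not overlap between groups in the higher direction, against 28.2% of all genes tested (35.3% in the lower direction and 63.5% in either). As the choice of genes used this contrast, nothing is read from these shares. GAL was not called in the limma fits on log2 FPKM. Over all genes tested, the median log2 fold change was -0.01. Scaling the libraries to equal FPKM sums moved that median to -0.14 and the share of calls in the higher direction from 43.4% to 19.0%. The log2 fold change of NTSR1 was then 1.17, that of GAL 1.09 and that of SORT1 0.07.

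**Figure D2:**
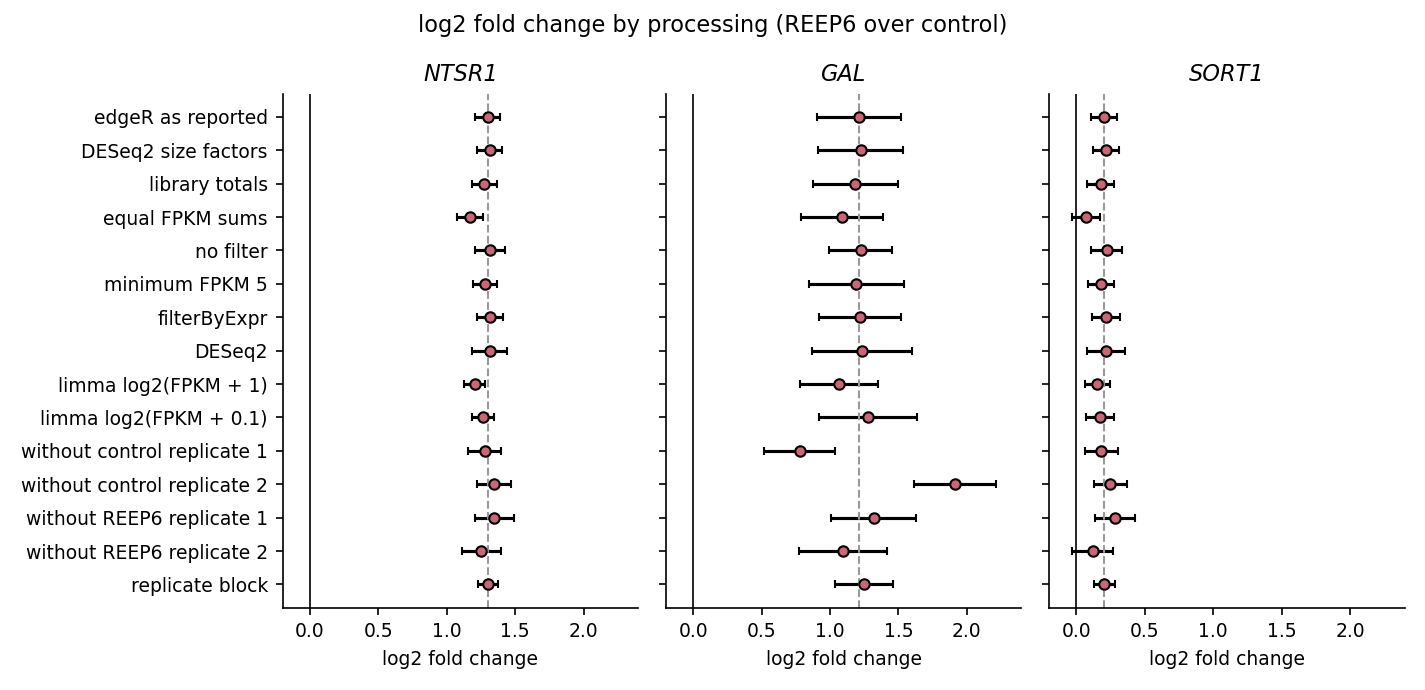
log2 fold change (REEP6 over control, horizontal axis, with SE) of NTSR1, GAL and SORT1 in the reported fit and in 14 alternatives, with the dashed line at the reported value. NTSR1 stays between 1.17 and 1.35, whereas GAL runs from 0.78 without control replicate 1 to 1.92 without control replicate 2.

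The levels of NTSR1 and GAL were placed among other peptide systems. The receptor list held 62 genes, among them RAMP1, RAMP2 and RAMP3, which encode accessory proteins of receptors. In it, NTSR1 was number 4 by mean FPKM in control, after F2RL1, F2R and VIPR1. F2RL1 and F2R encode protease-activated receptors, and VIPR1 encodes a receptor of vasoactive intestinal peptide. With REEP6, NTSR1 was number 3: VIPR1 had 12.3 and 13.0 FPKM in control and 10.5 and 12.2 FPKM with REEP6, below both REEP6 values of NTSR1. In control, NTSR1 and VIPR1 were neighbours whose libraries lay within 2 FPKM of each other. In all, 8 of the listed genes reached a mean of 1 FPKM in control and 10 did so with REEP6, RAMP1 among these 10. No count was found in any library for 13 of the listed genes, RAMP3 included. GALR2 was number 14 in control and number 15 with REEP6. Of 51 ligand genes, GAL was number 4 in control and number 3 with REEP6. ADM (adrenomedullin, a vasodilator peptide) led this order at 44.5 ± 1.24 and 51.4 ± 3.25 FPKM, followed by NMB (neuromedin B) at 7.26 ± 1.55 and 9.69 ± 1.58 FPKM (SD, n = 2). GAL and NMB with REEP6 were closer to each other than the 2 NMB libraries were. In control, PTHLH (number 5, 3.01 ± 0.315 FPKM) lay within the SD of GAL. In control replicate 1 PTHLH was above GAL, at 2.79 against 2.15 FPKM. NTS was number 14 in control and number 12 with REEP6, and 24 ligand genes had no count in any library.

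**Figure D3:**
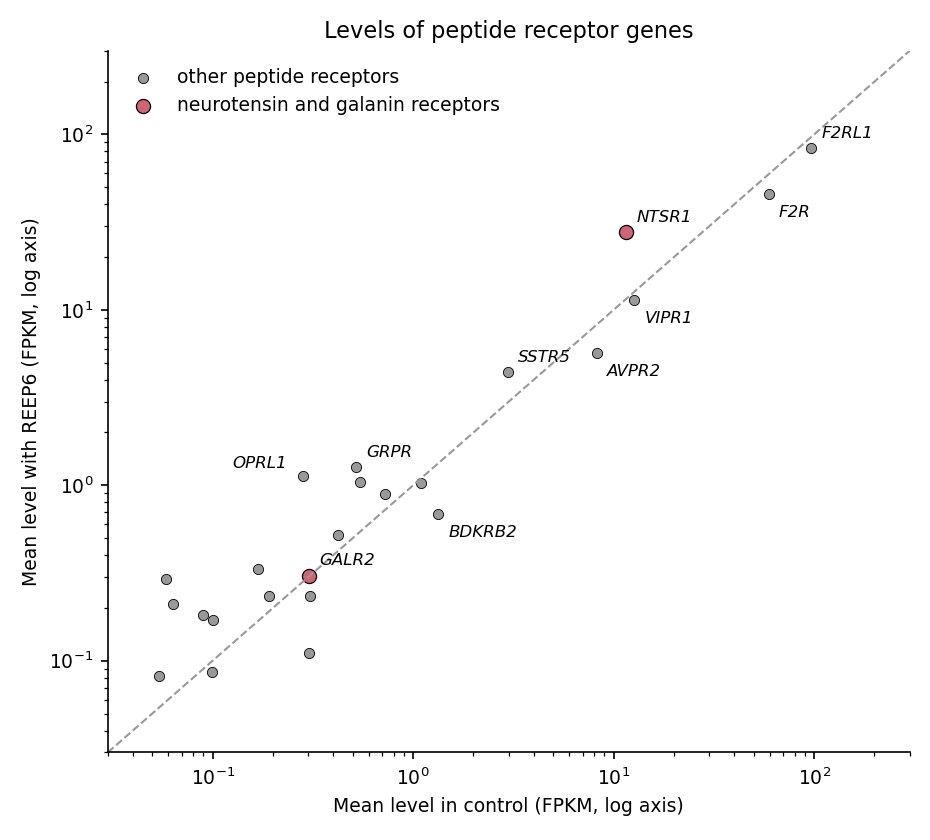
Mean FPKM of peptide receptor genes, with the accessory protein genes RAMP1 and RAMP2, in control (horizontal, log axis) and with REEP6 (vertical, log axis). Shown are the 24 of 62 genes with a mean of at least 0.05 FPKM in both groups, with equal levels on the dashed line. NTSR1 lies above the line at 11.5 and 27.8 FPKM and GALR2 on it at 0.302 and 0.304 FPKM.

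The genes around these peptides were taken as 9 lists with 217 genes. Of these, 87 passed the filter, of which 16 (18.4%) were called higher and 22 (25.3%) lower in the fit, beside 10.9% and 14.2% of all genes tested. The lists were chosen with earlier results of these data known, so nothing is read from these shares. SORCS2, MME, OPRL1 and GRPR, called higher, passed the filter through the REEP6 libraries, and BDKRB2, called lower, through the control libraries. Of the list genes named below, PREP, GNAS, GNAI2, GRK6, AP1M1 and GRPR lost their calls with equal FPKM sums, and GRPR also with library totals. In the limma fits SORCS2, MME, PLCB1, GNAS, GNAI2, GRK6, AP1M1, OPRL1, BDKRB2, F2R and GRPR lost theirs. DESeq2 did not call AVPR2, GRK6 or UCN2 and gave no adjusted p for GRPR, and UCN2 was not called with a minimum of 5 FPKM. The list of close relatives (galanin-like ligands, related peptide receptors and the sortilin family) had 13 genes, of which 2 passed the filter. SORCS2, a sortilin-family receptor, rose from 0.639 ± 0.156 to 1.72 ± 0.335 FPKM (2.73-fold, edgeR adjusted p = 0.00352), and passed the filter through the REEP6 libraries. SORL1, of the same family, was at 3.49 ± 0.225 and 3.48 ± 0.0945 FPKM and was not called.

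Of 15 listed genes that make peptides from precursors, 10 were tested, of which 6 fell, 0 rose and 4 were not called (14.2% of all genes tested were called lower). The median log2 fold change was -0.49. PCSK1, a convertase that cleaves prohormones, fell from 75.2 ± 1.84 to 50.2 ± 0.630 FPKM (1.47-fold), and PCSK1N, which encodes its inhibitor proSAAS, from 18.2 ± 0.502 to 8.79 ± 0.203 FPKM (2.03-fold). CPD, a carboxypeptidase that trims basic residues, fell from 9.37 ± 0.334 to 5.42 ± 0.283 FPKM (1.69-fold). PAM, the enzyme that amidates peptide ends, fell from 12.3 ± 0.609 to 8.42 ± 0.199 FPKM (1.44-fold). For these 4 genes the edgeR adjusted p lay between 0.000815 and 0.00327. FURIN, the ubiquitous convertase of the secretory pathway, was at 28.2 ± 0.612 and 23.8 ± 3.40 FPKM and was not called, nor was QPCT, which forms the pyroglutamate end of peptides such as neurotensin, at 4.41 ± 0.0377 and 5.34 ± 0.179 FPKM. The 6 lower calls stood in each fit without 1 library, and no gene of the list was called higher there. SCG2 and SCG3, 2 of the 6 neuroendocrine markers tested, were also lower with REEP6, and their part in this result was not tested.

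Among 8 tested peptidases able to degrade peptides, 3 rose and 2 fell, beside 10.9% and 14.2% of all genes tested. Their median log2 fold change was 0.09. LNPEP, a membrane aminopeptidase also known as the angiotensin IV receptor, fell from 9.53 ± 0.253 to 5.68 ± 0.500 FPKM (1.65-fold). MME (neprilysin), which cleaves neurotensin among other peptides, rose from 0.872 ± 0.0328 to 1.50 ± 0.0496 FPKM (1.76-fold). ANPEP (aminopeptidase N) rose from 3.36 ± 0.336 to 5.19 ± 0.00747 FPKM (1.58-fold), and PREP, a prolyl endopeptidase, from 15.7 ± 0.588 to 20.0 ± 0.510 FPKM (1.29-fold). The edgeR adjusted p of these 4 lay between 0.00107 and 0.0164. NLN (neurolysin) and THOP1 (thimet oligopeptidase), both known to cleave neurotensin, were not called, at 2.71 ± 0.0789 and 2.68 ± 0.370 FPKM and at 12.1 ± 2.18 and 13.3 ± 0.818 FPKM. MME passed the filter through the REEP6 libraries. PREP was not called without REEP6 replicate 1 or REEP6 replicate 2. The lower count was 1 without control replicate 2 or without REEP6 replicate 1.

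Downstream of the receptors, 8 G protein alpha subunit genes were tested. Of these, 2 rose and 2 fell (10.9% and 14.2% of all genes tested). GNAI1, an inhibitory subunit, fell from 5.71 ± 0.356 to 3.55 ± 0.0126 FPKM (1.58-fold, edgeR adjusted p = 0.00126), and GNA13 from 19.7 ± 1.56 to 14.3 ± 1.16 FPKM (1.35-fold, edgeR adjusted p = 0.0132). GNAS, the stimulatory subunit, rose from 72.7 ± 1.61 to 87.5 ± 3.98 FPKM (1.23-fold), and GNAI2 from 37.1 ± 1.05 to 44.1 ± 0.338 FPKM (1.21-fold), at an edgeR adjusted p of 0.0322 and 0.0330. GNAQ and GNA11, the subunits through which NTSR1 mainly signals, were not called, at 12.1 ± 1.26 and 11.1 ± 0.137 FPKM and at 4.83 ± 0.274 and 5.94 ± 0.243 FPKM. The edgeR adjusted p was 0.522 for GNAQ and 0.0566 for GNA11, which narrowly missed the threshold. The GNAI2 call was lost without any 1 library, with an edgeR adjusted p of 0.0502 to 0.185. The GNAS call was lost without control replicate 1, REEP6 replicate 1 or REEP6 replicate 2, and that of GNA13 without control replicate 2 or REEP6 replicate 1. With equal FPKM sums no gene of the list was called higher.

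Of 19 tested effectors (phospholipase C-beta, IP3 receptors, protein kinases C and D, adenylyl cyclases), 5 rose and 3 fell. The shares of all genes tested were 10.9% and 14.2%, and the median log2 fold change of the 19 was 0.13. The IP3 receptor genes, whose products release stored calcium, went both ways: ITPR3 rose from 7.08 ± 0.783 to 11.2 ± 0.0990 FPKM (1.61-fold), and ITPR2 fell from 25.4 ± 3.39 to 17.6 ± 1.12 FPKM (1.41-fold). PLCB1, a phospholipase C that Gq activates, fell from 2.04 ± 0.0270 to 1.37 ± 0.00790 FPKM (1.47-fold). ADCY3, an adenylyl cyclase, rose from 2.30 ± 0.0316 to 3.79 ± 0.154 FPKM (1.68-fold). The edgeR adjusted p of these 4 lay between 0.00171 and 0.00911. The higher count was 3 without control replicate 2, without REEP6 replicate 1 or without REEP6 replicate 2. Of 6 genes of receptor desensitization, 2 rose and 0 fell (10.9% and 14.2% of all genes tested). ARRB2, a beta-arrestin that uncouples and internalizes receptors, rose from 5.36 ± 0.0366 to 8.80 ± 1.21 FPKM (1.67-fold, edgeR adjusted p = 0.00396). GRK6, a kinase that marks receptors for arrestin, rose from 14.9 ± 0.551 to 18.1 ± 0.272 FPKM (1.24-fold, edgeR adjusted p = 0.0328), a call that was lost without control replicate 2, REEP6 replicate 1 or REEP6 replicate 2.

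Among 17 tested genes of sortilin trafficking and its partners, 1 rose and 5 fell, beside 10.9% and 14.2% of all genes tested. Their median log2 fold change was -0.09. BDNF, a neurotrophin that sortilin sorts, fell from 8.01 ± 0.749 to 3.56 ± 0.398 FPKM (2.21-fold, edgeR adjusted p = 0.000504). PSAP, which encodes prosaposin, a lysosomal cargo of sortilin, fell from 331 ± 15.0 to 200.2 ± 0.858 FPKM (1.62-fold, edgeR adjusted p = 0.000807). VPS35, of the retromer that returns sortilin to the Golgi, fell from 23.9 ± 2.08 to 17.1 ± 0.689 FPKM (1.37-fold, edgeR adjusted p = 0.00730). AP1M1, of the clathrin adaptor AP-1, rose from 4.53 ± 0.627 to 6.04 ± 0.360 FPKM (1.36-fold, edgeR adjusted p = 0.0189), and was not called without control replicate 1. The lower count was 3 without control replicate 2 or without REEP6 replicate 2.

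Of 8 other neuropeptide ligand genes that were tested, 1 fell and 0 rose (14.2% and 10.9% of all genes tested). UCN2 (urocortin 2) fell from 5.79 ± 0.913 to 3.46 ± 0.419 FPKM (1.65-fold, edgeR adjusted p = 0.0411), and its call was lost without control replicate 2, REEP6 replicate 1 or REEP6 replicate 2. Without control replicate 1 the lower count was 2. NMU (neuromedin U), at 0.899 ± 0.255 and 2.20 ± 0.390 FPKM, had a log2 fold change of 1.30 ± 0.456 (SE). It rested on 9, 16, 32 and 25 counts, passed the filter through the REEP6 libraries, and missed the threshold (edgeR adjusted p = 0.0641). NMU was named after its values were seen. Of 9 other peptide receptor genes, 2 rose and 3 fell (10.9% and 14.2% of all genes tested). OPRL1, the nociceptin receptor, rose from 0.283 ± 0.0336 to 1.13 ± 0.0641 FPKM (4.04-fold), and passed the filter through the REEP6 libraries. The bradykinin receptor gene BDKRB2 fell from 1.33 ± 0.202 to 0.683 ± 0.0647 FPKM (1.91-fold), F2R from 59.2 ± 3.90 to 45.5 ± 3.35 FPKM (1.28-fold) and the vasopressin receptor gene AVPR2 from 8.25 ± 0.231 to 5.67 ± 0.287 FPKM (1.43-fold). The edgeR adjusted p of these 4 lay between 0.00400 and 0.0332. The higher count was 1 without control replicate 1, control replicate 2 or REEP6 replicate 1, and the lower count was 1 without control replicate 2 or REEP6 replicate 1. F2R was not called without control replicate 2 or REEP6 replicate 1, nor AVPR2 without control replicate 2, REEP6 replicate 1 or REEP6 replicate 2. BDKRB2 passed the filter through the control libraries. GRPR, the gastrin-releasing peptide receptor gene, was the other one called higher, at 0.518 ± 0.00913 and 1.27 ± 0.308 FPKM (2.49-fold, edgeR adjusted p = 0.0496), and was named after its values were seen. It passed the filter through the REEP6 libraries, and its call was lost without control replicate 1, control replicate 2 or REEP6 replicate 1 (edgeR adjusted p of up to 0.288).

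**Figure D4:**
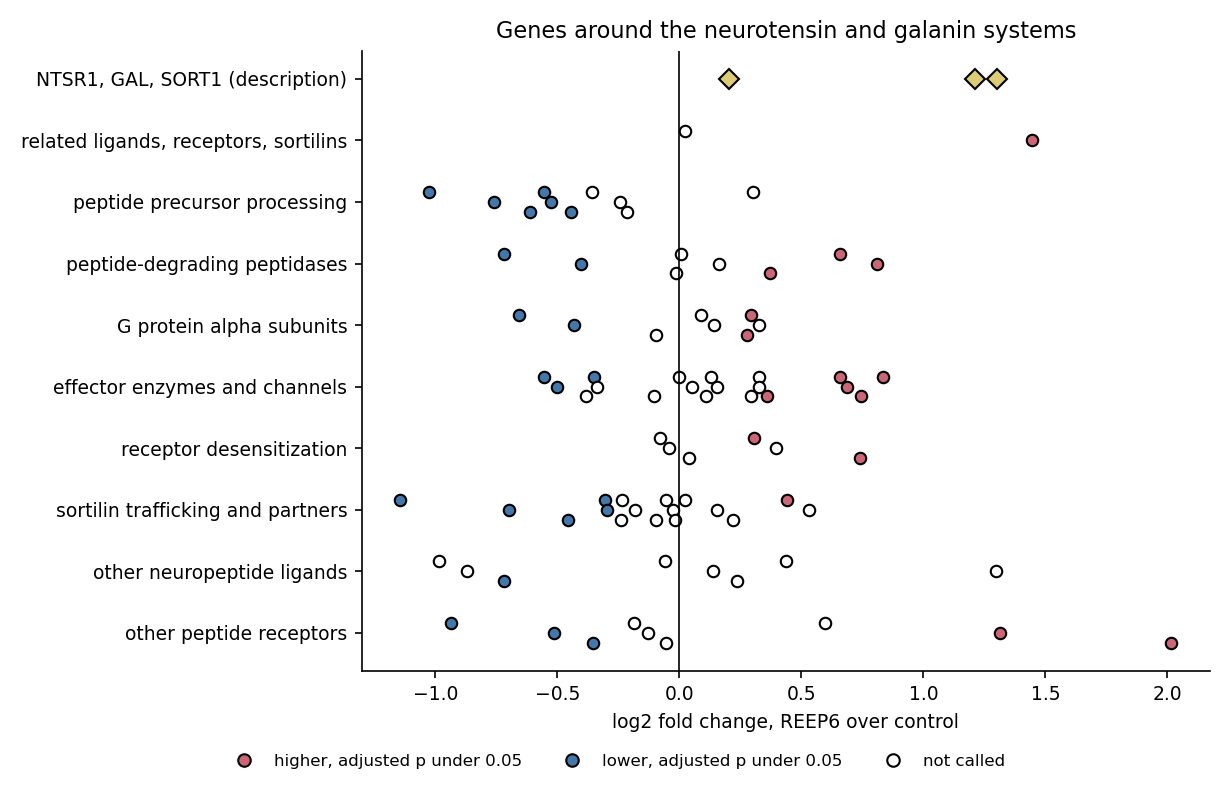
log2 fold change (REEP6 over control, horizontal axis) of each tested gene in the 9 lists, red where called higher, blue where called lower and white where not called, with NTSR1, GAL and SORT1 as yellow diamonds in the top row. The row of peptide precursor processing holds 6 blue points and no red one, and the other rows hold points on both sides of 0 or few points.

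Position on the chromosome was not used to choose the genes. The 5 nearest tested genes on each side were therefore compared in the same fit. Around NTSR1, 2 of 10 were called higher and 0 lower (10.9% and 14.2% of all genes tested). SLCO4A1, an organic anion transporter gene 23.1 kb away, rose from 24.9 ± 1.41 to 36.8 ± 0.420 FPKM (1.51-fold, edgeR adjusted p = 0.00181). COL9A3, a collagen gene 53.5 kb away, rose from 8.37 ± 1.30 to 14.1 ± 2.00 FPKM (1.72-fold, edgeR adjusted p = 0.00381). The other 8 neighbours were not called. One of them, AL357033.2, is antisense to NTSR1 within its span and shares 0 exonic bases with it, with 14, 7, 17 and 29 counts in control replicates 1 and 2 and REEP6 replicates 1 and 2. Its log2 fold change was 1.21 ± 0.560 (SE, edgeR adjusted p = 0.141). Whether the counting used strand is not stated. Exonic reads of NTSR1 and of this antisense gene fall on different bases, and reads from the introns of either gene were not examined.

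Around GAL, 3 of 10 neighbours were called higher and 2 lower (10.9% and 14.2% of all genes tested). MYEOV, described as overexpressed in myeloma, rose from 5.18 ± 0.337 to 7.77 ± 0.327 FPKM (1.53-fold), C11orf24 from 7.33 ± 0.418 to 9.38 ± 0.374 FPKM (1.30-fold) and MRPL21, a mitochondrial ribosomal protein gene, from 32.1 ± 0.168 to 38.8 ± 0.779 FPKM (1.23-fold). KMT5B, a histone methyltransferase gene, fell from 10.8 ± 0.567 to 6.61 ± 0.0877 FPKM (1.60-fold), and PPP6R3, a phosphatase subunit gene 68.4 kb from GAL, from 26.3 ± 0.881 to 19.4 ± 0.438 FPKM (1.33-fold). The edgeR adjusted p of these 5 lay between 0.00124 and 0.0426. C11orf24 and MRPL21 lost their calls without control replicate 1, REEP6 replicate 1 or REEP6 replicate 2, with equal FPKM sums and in the limma fits, and C11orf24 also with library totals, with a minimum of 5 FPKM and in DESeq2. Around SORT1, 1 of 10 was called: CELSR2, a cadherin gene 33.8 kb away, rose from 0.675 ± 0.0433 to 1.20 ± 0.108 FPKM (1.81-fold, edgeR adjusted p = 0.00748). CELSR2 passed the filter through the REEP6 libraries and was not called in the limma fits. Over the 3 genes, 6 of 30 neighbours were called higher and 2 lower, beside the same 10.9% and 14.2% of all genes tested. The 6 include C11orf24, MRPL21 and CELSR2, with the limits just given. Around the 5 genes that did not pass the filter, 4 of 50 were called higher and 7 lower. The difference between these counts was not tested, and nothing is read from it. The farthest neighbours lay 4936.4 kb from NTS, 3921.0 kb from NTSR2, 2401.9 kb from GALR1, 231.9 kb from GALR2 and 230.8 kb from GALR3. They lay 603.0 kb from GAL (MYEOV), 233.6 kb from SORT1 and 105.7 kb from NTSR1.

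**Figure D5:**
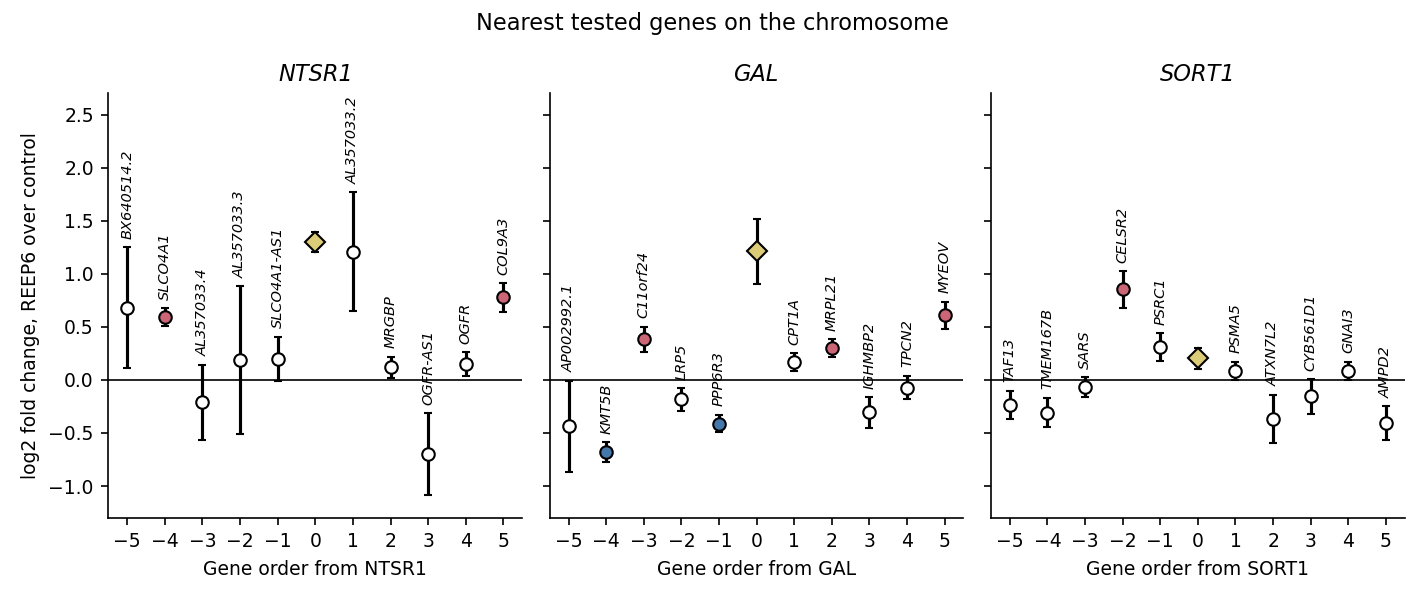
log2 fold change (REEP6 over control, vertical axis, with SE) of the 5 nearest tested genes on each side of NTSR1, GAL and SORT1 by order along the chromosome, red where called higher, blue where called lower and white where not called, with the gene itself as a yellow diamond. SLCO4A1 and COL9A3 beside NTSR1 are red at 0.59 and 0.78, below NTSR1 at 1.30.

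Genes with the most similar pattern over the 4 libraries were found by the Euclidean distance between log2 CPM values centred on each gene's mean, over 9580 genes. Nearest to NTSR1 were PDGFA, a platelet-derived growth factor chain, at a distance of 0.0750, N4BP3 at 0.113 and GFPT2, an enzyme of hexosamine synthesis, at 0.129. Mean PDGFA was 7.83 FPKM in control and 18.7 FPKM with REEP6. Nearest to GAL were RNF208 at 0.200, TMEM51 at 0.393 and C1QL1 at 0.431, and all 3 shared the low value of GAL in control replicate 1. Nearest to SORT1 were E2F4 at 0.0164, GYG1 at 0.0171 and SDHD at 0.0178. These distances rest on 4 libraries and describe those libraries only.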

How the data were processed

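Polyadenylated RNA of 4 SCC-15 samples was analysed, grouped by title. Each deposited table gives the authors' raw count and FPKM value for every gene of 1 sample. The submitters' processing notes name HISAT2, HTSeq 0.13.5 and GRCh38. The sources used here do not give the annotation, the strand setting or the treatment of multiply matching reads. Deposited FPKM equalled the count scaled by the column total and 1 length per gene (100% of 29161 genes, relative tolerance 0.0001). All 51103 identifiers matched GENCODE 29, which gave the coordinates.

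Genes with at least 1 FPKM in at least 2 libraries (13077) were fitted with edgeR 4.0.16 in R 4.3.3 (quasi-likelihood test, TMM scaling, abundance trend, group term, 2 residual degrees of freedom), with a two-sided test, Benjamini-Hochberg adjusted p-values and 0.05 as the threshold. The biological coefficient of variation was 9.35%. With 2 libraries a group, the smallest p of an exact permutation test is 0.333, so none was used. Replicates differed by more than counting noise (chi-square per degree of freedom 9.58 and 5.68). The fit was tested on simulated data for this comparison with 13077 genes: the recovery was 47% for 100 genes at a 1.5-fold change, 80% for 50 genes at 2-fold and 94% for 50 genes at 3-fold.

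The genes and lists were chosen with earlier results of these data known. Named genes were the 8 members, REEP6, up to 4 called genes per list by smallest p, called neighbours of the members that passed the filter, and the 3 genes of most similar pattern (mean of at least 2 FPKM, prior count 2). Other genes were named as markers, for their level or as known partners. Alternatives were DESeq2 1.42.0 and its size factors, library totals, equal FPKM sums, no filter, a minimum of 5 FPKM, filterByExpr, limma 3.58.1 on log2(FPKM + 1) and log2(FPKM + 0.1), leaving out each library, and a replicate block.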

Additional observations from a re-analysis of the deposited data

How the results depend on the processing

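NTSR1, GAL and SORT1 kept their direction in all 14 alternatives. These fits use the libraries by which the genes were chosen, so this is a description as well. The log2 fold change of NTSR1 was 1.17 with equal FPKM sums and 1.20 with limma on log2(FPKM + 1), and that of SORT1 was 0.072 with equal FPKM sums. GAL lost its call in both limma fits. Genes called higher numbered 1422 as reported, 661 with equal FPKM sums, 936 with a minimum of 5 FPKM, 634 and 597 in the limma fits (pseudocounts 1 and 0.1) and 940 to 1495 without 1 library. Genes called lower numbered 1853 as reported, 2824 with equal FPKM sums and 1233 with limma and a pseudocount of 0.1. List genes called higher numbered 16 as reported, 8 with equal FPKM sums, 9 with a minimum of 5 FPKM, 7 and 6 in the limma fits and 9 to 14 without 1 library. List genes called lower numbered 22 as reported and 14 in each limma fit. Calls split 43.4% higher as reported, 33.3% and 32.6% in the limma fits and 19.0% with equal FPKM sums. Of 252 values of the 18 counts per list, 71 moved by over 1.5 times. For 38 named genes, 447 of 523 values kept their call, 76 lost it and 0 reversed. Apart from filters that test fewer genes and fits with fewer libraries, the cause was not tested. Low counts limit NTS, GALR2 and GALR3.

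Replicate numbers are shared by both groups in the titles, but nothing ties equal numbers to a shared culture or day. Over the 13077 genes tested, the deviations of control replicate 1 and REEP6 replicate 1 from their group means correlated at 0.27. With 2 libraries a group, the deviations of the libraries numbered 2 mirror these and add nothing. With the number as a replicate block, 2960 genes were called higher and 3062 lower, and 28 list genes higher. SORT1 was called only there.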
